A study of Mus musculus with 9 samples.

Results

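The members are 465 genes along distal mouse chromosome 8. They were taken by position in GENCODE M21 on GRCm38, as genes that start at 75 Mb or beyond, and by depth, as genes with at least 10 reads in 3 or more of the 9 libraries. The chromosome holds 1158 annotated identifiers from 75 Mb on, of which 384 had no read in any library, and 14422 of 55335 identifiers in the whole data set met the same read minimum. Of the members, 305 start at 75 to under 110 Mb, here the proximal segment, and 160 start from 110 Mb on, here the distal segment. The stretch and its boundary were chosen from differences between each hairpin and the control in these same libraries, so those differences, and the edgeR calls counted from them below, are a description that supports nothing. The contrast between the hairpins is the only one read as a test, gene by gene. It uses the same knockdown libraries, so it is not fully free of that choice.

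The libraries come from D2A1-d cells, a mouse breast carcinoma line known as a model of dormant disseminated tumour cells, grown in culture. They were transduced with a non-targeting control (NTC, genotype WT in the labels) or with 1 of 2 short hairpin RNAs against Med4 (shMed4 #1 and shMed4 #4, genotype Med4 knockdown). Each group has 3 libraries, called biological replicates, and the treatment label is untreated throughout. Separate transductions are not mentioned for the replicates of a group, so the spread between them may be that of repeat cultures of 1 transduced population. Med4 encodes a subunit of the middle module of Mediator, through which DNA-bound activators reach RNA polymerase II. Its reads numbered 236, 216 and 204 in the NTC libraries, 40, 35 and 38 with shMed4 #1, and 66, 60 and 50 with shMed4 #4, so all 6 knockdown libraries were below all 3 controls.

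Libraries held 7572114 to 8582235 reads assigned to genes, and 462 members entered the fit across 14335 genes (303 proximal, 159 distal). The others, Gm7984, Gm6793 and Hsd11b2, which encodes the enzyme that inactivates glucocorticoids, had 74, 71 and 60 reads over all libraries. Of the fitted members, 259 proximal and 147 distal genes had 10 reads in all 9 libraries. Another 6 proximal genes reached 10 reads in NTC libraries only, and 3 proximal and 1 distal gene in knockdown libraries only, so these had to differ. At the read minimum, 8 members had exactly 10 reads in the library with the third-highest count and 7 genes just outside had 9. The line's markers were incomplete: Krt8 and Krt18 were present, but Cdh1, the epithelial cadherin, had 0 reads. Over all libraries Krt14 had 16 reads, and Krt5 and Epcam 1 each, so the epithelial sum is nearly all Krt8 and Krt18. Summed mammary epithelial markers (6 genes) ran from 23.57 to 24.97 CPM (read counts scaled to a common effective library size) in NTC, 93.4 to 111 with shMed4 #1 and 175 to 201 with shMed4 #4. Fibroblast markers (5 genes, nearly all of it Pdgfra and Pdgfrb) ran from 245 to 275, 184 to 192 and 163 to 175 CPM. Leukocyte markers (6 genes, Cd3e at 0) ran from 6.95 to 7.86, 3.74 to 5.21 and 4.53 to 5.95 CPM, and endothelial markers (5 genes, Tie1 at 0) from 1.29 to 1.74, 2.73 to 4.27 and 2.19 to 3.67 CPM. Most of the endothelial sum was Cdh5, which is itself a proximal member, so that list is not separate from the stretch. In all 4 lists the knockdown libraries did not overlap NTC. The part of these shifts in the results below was not tested.

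Neighbouring genes on a chromosome share its copy number, its replication timing and its large chromatin domains, so transcript levels of unrelated genes can move together along a stretch. Cultured carcinoma lines commonly carry gains and losses of chromosome arms and segments, and these can differ between sublines. In RNA counts such a change appears as a shift shared by most genes between a pair of positions, with single genes departing from it through their own regulation. DNA copy number was not measured in these libraries.

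The promoters of 3 genes around the place where the direction changed are given first, since that place is read from their neighbours' values. They are the RefSeq windows on GRCm38.p6 from 250 bases before to 50 bases after an annotated start, read 5′ to 3′ on the gene's strand. Of the fitted members, 199 of 303 proximal and 113 of 159 distal genes had such a window. Wwp2 (chr8:107436120-107436419, plus strand) encodes a ubiquitin ligase and was among the last low genes. Zfhx3 (chr8:108714394-108714693, plus strand) encodes a large homeodomain and zinc finger transcription factor. Its window lies at a start 772000 bases inside the longer gene model of GENCODE M21. Txnl4b (chr8:109565642-109565941, plus strand) encodes a thioredoxin-like protein linked to splicing and lies among the first high genes. Capitals mark matches on either strand to the GC box GGGCGG, the CCAAT box CCAAT and the TATA box TATAAA.
Wwp2: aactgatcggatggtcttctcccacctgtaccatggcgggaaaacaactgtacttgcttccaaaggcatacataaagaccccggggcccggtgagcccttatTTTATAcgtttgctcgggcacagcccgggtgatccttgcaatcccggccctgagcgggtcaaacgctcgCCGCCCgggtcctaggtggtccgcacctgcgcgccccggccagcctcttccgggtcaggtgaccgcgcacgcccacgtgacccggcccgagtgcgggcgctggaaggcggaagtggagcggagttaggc
Zfhx3: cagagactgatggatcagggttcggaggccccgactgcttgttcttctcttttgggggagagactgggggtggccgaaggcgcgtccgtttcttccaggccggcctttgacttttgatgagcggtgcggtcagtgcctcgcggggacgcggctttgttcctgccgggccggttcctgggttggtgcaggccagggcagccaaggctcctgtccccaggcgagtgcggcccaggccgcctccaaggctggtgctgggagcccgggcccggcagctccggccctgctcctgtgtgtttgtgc
Txnl4b: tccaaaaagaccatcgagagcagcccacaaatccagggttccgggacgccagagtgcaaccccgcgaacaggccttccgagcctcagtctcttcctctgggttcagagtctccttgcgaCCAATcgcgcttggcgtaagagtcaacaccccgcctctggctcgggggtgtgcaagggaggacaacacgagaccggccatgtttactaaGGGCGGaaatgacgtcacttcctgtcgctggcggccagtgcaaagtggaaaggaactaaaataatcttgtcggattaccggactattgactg
The Wwp2 window held 1 GC box and 1 TATA box match, the Txnl4b window 1 GC box and 1 CCAAT match, and the Zfhx3 window 0 of the motifs. Of 32544 promoter windows of the same length, 35.9% held a GC box, 37.4% a CCAAT box and 13.6% a TATA box. The shares were 61.3%, 37.2% and 7.54% over the proximal members and 72.6%, 34.5% and 9.73% over the distal members. Members of both segments held GC boxes more often than all windows did, a comparison of expressed genes with all annotated genes.

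Most proximal genes were lower with both hairpins, and most distal genes were higher. The median log2 fold change of the 303 proximal members was -0.43 with shMed4 #1 and -0.52 with shMed4 #4, or 74.0% and 69.8% of the NTC level. The median of the 159 distal members was 0.19 and 0.35, or 114% and 128% of NTC. Over all 14335 genes tested the medians were -0.01 and -0.01, and over the 366 tested genes of chromosome 8 before 75 Mb they were -0.02 and 0.06. In bulk RNA, fewer cells with a transcript and less transcript per cell cannot be told apart.

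The shift was seen in each library. Set against the NTC mean, the proximal median was -0.43, -0.44 and -0.44 in the shMed4 #1 libraries and -0.48, -0.55 and -0.53 in the shMed4 #4 libraries. The distal median was 0.20, 0.22 and 0.23 with shMed4 #1 and 0.34, 0.35 and 0.32 with shMed4 #4. NTC libraries, each set against the other NTC libraries, stayed between -0.02 and 0.03 in both segments, so no knockdown library overlapped the controls in either.

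Measured as a share of each library's gene reads, with no further scaling between libraries, the proximal members took 3.04% in each NTC library. They took 2.38%, 2.38% and 2.35% with shMed4 #1, and 2.28% in each shMed4 #4 library. The distal members took 0.948%, 0.941% and 0.956% in NTC, 1.13%, 1.14% and 1.15% with shMed4 #1, and 1.25%, 1.26% and 1.25% with shMed4 #4. The proximal share was thus lowest with #4 and highest in NTC, and the distal share the reverse, with no overlap between groups. Calr alone, which encodes the endoplasmic reticulum chaperone calreticulin, made up 15.1% of the proximal reads in NTC. Without it the proximal share was 2.57 to 2.59% in NTC, 1.88 to 1.89% with shMed4 #1 and 1.78 to 1.79% with shMed4 #4.

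**Figure D1:**
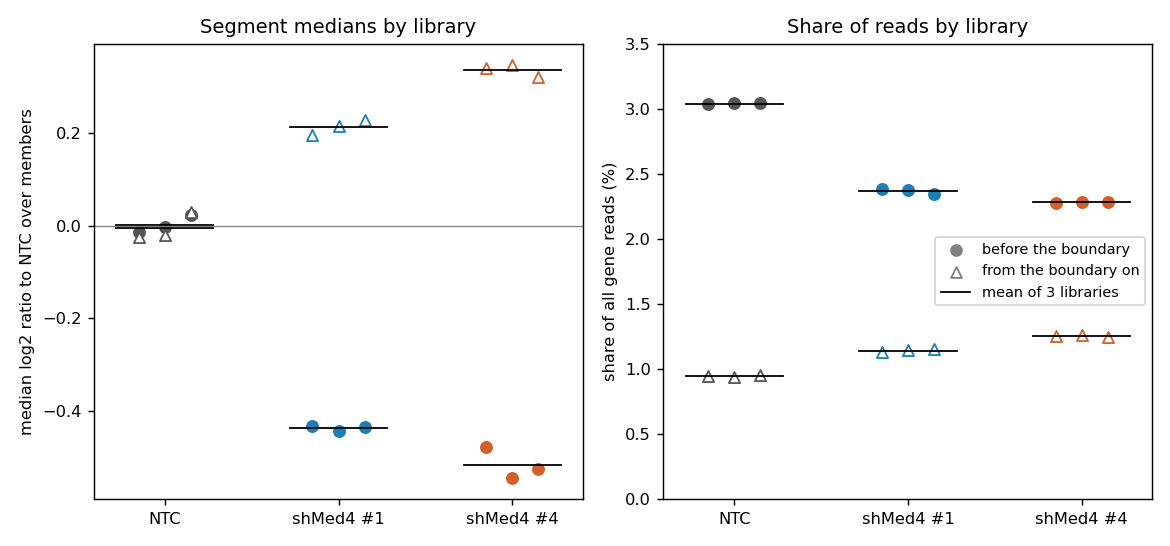
Left, the median log2 ratio to NTC over the proximal members (filled circles) and the distal members (open triangles) in each of the 9 libraries; right, the share of all gene reads they took, in percent. Lines are means of 3 libraries, and the knockdown libraries lie apart from NTC in both panels, in opposite directions for the 2 segments.

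Counted gene by gene, 265 of 303 proximal members (87.5%) were below NTC with shMed4 #1 and 258 (85.1%) with shMed4 #4. Of these, 221 (72.9%) and 225 (74.3%) passed edgeR's quasi-likelihood test at an adjusted p under 0.05, where 19.8% and 27.3% of all 14335 genes were called lower. In the distal segment 123 of 159 members (77.4%) and 129 (81.1%) were above NTC, and 74 (46.5%) and 100 (62.9%) were called higher, where 21.8% and 27.8% of all genes were. Counted by libraries instead, 228 proximal members were below NTC without overlap with shMed4 #1 and 226 with #4 (23.9% and 29.7% of all genes were), and 85 and 99 distal members above it (25.3% and 29.9% of all genes). Calls in the other direction numbered 20 and 27 in the proximal segment and 3 and 8 in the distal segment. With both hairpins, 207 proximal members (68.3%) were called lower and 67 distal members (42.1%) higher, against 15.8% and 17.4% of all genes. The hairpins share their NTC libraries, and the contrasts chose the stretch, so nothing further is read from these counts.

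Within each segment the size of the change varied from gene to gene, with a robust SD (the scaled median absolute deviation) of 0.32 and 0.51 over proximal genes and 0.24 and 0.31 over distal genes. Over all genes tested it was 0.31 and 0.42. The proximal values, around a lower centre, were thus spread about as widely as those of all genes with shMed4 #1 and more widely with #4. The distal values were spread less widely. Over the members before Zfhx3 the robust SD was 0.30 with shMed4 #1 and 0.47 with shMed4 #4. In each segment the spread depended on read depth. Among proximal members with a mean of at least 50 CPM (132 genes) the median was -0.39 with shMed4 #1 and -0.43 with shMed4 #4, with robust SDs of 0.22 and 0.34, and 122 and 118 of them were below 0. Among the 90 proximal members under 10 CPM the medians were -0.60 and -0.77 and the SDs 0.70 and 1.13. Distal members of at least 50 CPM (56 genes) had medians of 0.23 and 0.41 with SDs of 0.14 and 0.18, and those under 10 CPM (37 genes) 0.08 and 0.10 with SDs of 0.45 and 0.53. In both segments the abundant genes were thus closer together than the sparse ones.

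Gene type, strand and exon overlap played no part in the choice. Protein-coding genes made up 242 of 303 proximal and 130 of 159 distal members, and most others were antisense and long intergenic RNAs or pseudogenes. The median NTC level per exon length was 13.1 RPKM (CPM per kilobase of exon) for proximal and 7.43 RPKM for distal members, so proximal genes were on the whole more expressed in the control. Both strands were used about evenly, with 158 plus and 145 minus genes in the proximal and 82 and 77 in the distal segment. Protein-coding members had medians against NTC, again the differences behind the choice, of -0.42 and -0.50 (proximal) and 0.21 and 0.36 (distal), and other biotypes -0.57 and -0.81 (61 genes) and 0.10 and 0.30 (29 genes). At least 10% of the exon sequence was covered by an antisense gene for 67 proximal and 29 distal members. Whether counting used strand is not stated in the sources used here, so how reads in such shared exons were assigned is not known. Records set aside as ambiguous made up 0.863 to 0.951% of each library.

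**Figure D2:**
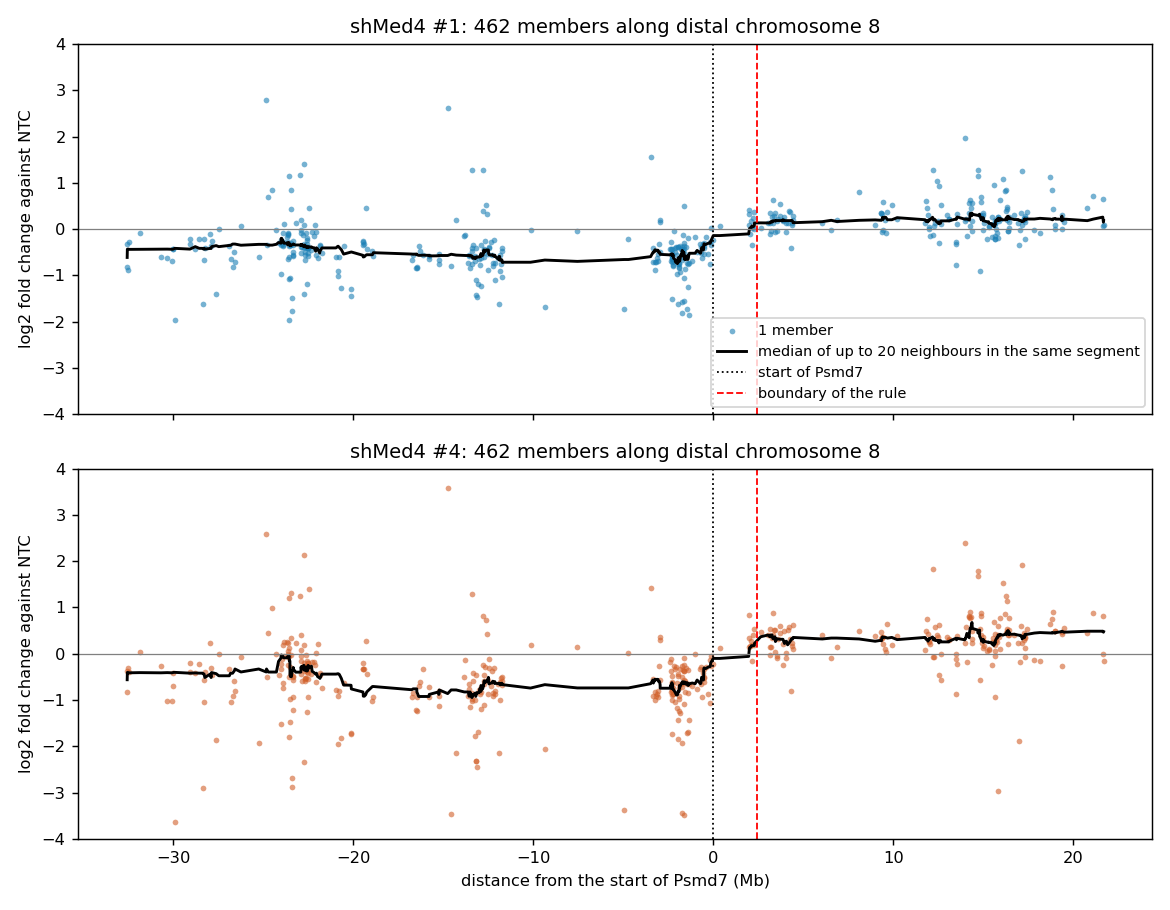
Each point is 1 of 462 members, placed by its distance in Mb from the start of Psmd7, with its log2 fold change against NTC for shMed4 #1 (top) and shMed4 #4 (bottom). The black line, the median of up to 10 neighbours on each side within a segment, runs below 0 up to the dotted line at Psmd7 and above 0 from the dashed line at 110 Mb on.

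In steps of 5 Mb, the bins from 75 to 110 Mb had medians of -0.33 to -0.59 with shMed4 #1 and -0.30 to -0.84 with shMed4 #4. The lowest values with shMed4 #4 were at 90 to 95 Mb (48 genes, -0.58 and -0.84) and at 100 to 105 Mb (16 genes, -0.51 and -0.68). The bin at 80 to 85 Mb (70 genes) was the shallowest, at -0.33 and -0.30, and held 6 of the 11 genes described below as going against their neighbours with both hairpins. The 4 bins from 110 to 130 Mb had medians of 0.17 to 0.22 and 0.31 to 0.49. Before 75 Mb the bins from 55 to 75 Mb were slightly below 0, between -0.08 and -0.16 with shMed4 #1 and between -0.04 and -0.19 with shMed4 #4. Over the genome, 418 bins held at least 10 tested genes. A median of -0.3 or lower with both hairpins was found in 12 of them, 6 in the proximal segment, which had 7 such bins in all. A median of 0.15 or higher with both was found in 57, among them all 4 distal bins.

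At the 75 Mb end no split was fitted, so how sharp the change is there was not tested. With shMed4 #1 and #4, bin medians were -0.16 and -0.08 at 70 to 75 Mb (93 genes) and -0.43 and -0.41 at 75 to 80 Mb (23 genes). Hmgxb4, a chromatin protein with an HMG box that starts at 74.99 Mb and is the last measured gene before 75 Mb, had log2 fold changes of -0.24 and -0.29. Inside, Gm45822 had -0.32 and -0.38 and shares 56.0% of its exons with Tom1 on the other strand. Tom1, an adaptor of endosomal sorting, had -0.82 and -0.83. At the 110 Mb boundary no change was seen: Gm17344 and Phlpp2, a phosphatase of Akt, had 0.36 and 0.53 and 0.00 and 0.19 just before it, and the cap methyltransferase Cmtr2 and Vac14, of the lipid kinase complex of endosomes, 0.03 and 0.46 and 0.14 and 0.41 just after.

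The change of direction itself lay before 110 Mb. The split into 2 segments that left the least absolute deviation from their medians, over members in order of start, fell between Wwp2 and the pseudogene Rps26-ps1 (107.439 Mb) with shMed4 #1 and between Psmd7 and Zfhx3 (107.943 Mb) with shMed4 #4. Each hairpin's second choice was the other's first, at 0.0828% and 0.0597% more deviation, and the 6 best splits of each all lay from 107.412 to 109.548 Mb. The best split saved 29.3% and 26.3% of the deviation from a single median. Taken per library, it was at 107.439, 107.439 and 107.943 Mb with shMed4 #1 and at 107.439, 107.943 and 107.943 Mb with shMed4 #4. In the NTC libraries it was at 84.2, 77.7 and 93.8 Mb and saved 0.532 to 1.03%. All 6 knockdown libraries put the change at 1 of 2 neighbouring places, and the controls at scattered places where almost nothing was gained. The knockdown libraries are set against the same NTC mean, and the stretch was chosen from these differences. Their agreement is therefore a description only.

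The interval is long because few genes are measured there. From the end of Psmd7 to the GENCODE start of Zfhx3 there are 354.2 kb, and from that start to the start of Dhx38 another 1605 kb. Psmd7, a lid subunit of the proteasome, read 263, 252 and 260 CPM in NTC, 227, 216 and 212 CPM with shMed4 #1, and 225, 219 and 216 CPM with shMed4 #4. Every knockdown library was below every NTC library, with log2 fold changes of -0.24 (SE 0.05) and -0.23 (SE 0.05), and the hairpins overlapped each other. Wwp2 read 187, 196 and 202 CPM in NTC, 150, 155 and 154 CPM with shMed4 #1 and 159, 160 and 166 CPM with shMed4 #4. It was likewise low in all 6, at -0.35 and -0.27.

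Zfhx3 read 58.4, 58.2 and 54.0 CPM in NTC, 67.8, 53.6 and 57.7 CPM with shMed4 #1 and 54.5, 64.8 and 66.8 CPM with shMed4 #4. Its groups overlapped, at 0.07 (SE 0.08) and 0.12 (SE 0.08), so it belongs clearly to neither side. Dhx38, a helicase of splicing, read 77.9, 81.3 and 78.2 CPM in NTC, 84.4, 84.0 and 85.2 CPM with shMed4 #1 and 91.0, 84.1 and 87.3 CPM with shMed4 #4. All 6 knockdown libraries were above NTC here, at 0.10 and 0.14, though edgeR called Dhx38 higher with shMed4 #4 only. Txnl4b had 0.33 and 0.34, and Dhodh, the mitochondrial enzyme of pyrimidine synthesis, 0.40 and 0.83.

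On the near side, Nqo1, a quinone reductase and target of NRF2, had -0.76 and -1.06 and Nob1, an endonuclease that matures 18S ribosomal RNA, -0.28 and -0.15. Rps26-ps1 had only 2.77 to 5.45 CPM in the 9 libraries and overlapped between groups, at 0.03 and -0.06, and as a copy of a ribosomal protein gene its counts are uncertain. Among the 12 members up to Psmd7, 69 of 72 values in knockdown libraries were below the NTC mean and 11 genes were below it in all 6 libraries. Among the 12 members from Zfhx3 on, 59 of 72 values were above it and 7 genes were above in all 6. The split was placed on these same values, so the counts only describe it. The share of all genes that lay to 1 side of the NTC mean in all 6 libraries is not given here. The 11 members between the split and 110 Mb had medians of 0.10 and 0.19, with 9 and 10 of them above 0. By the rule they count as proximal, but their direction was that of the distal genes.

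**Figure D3:**
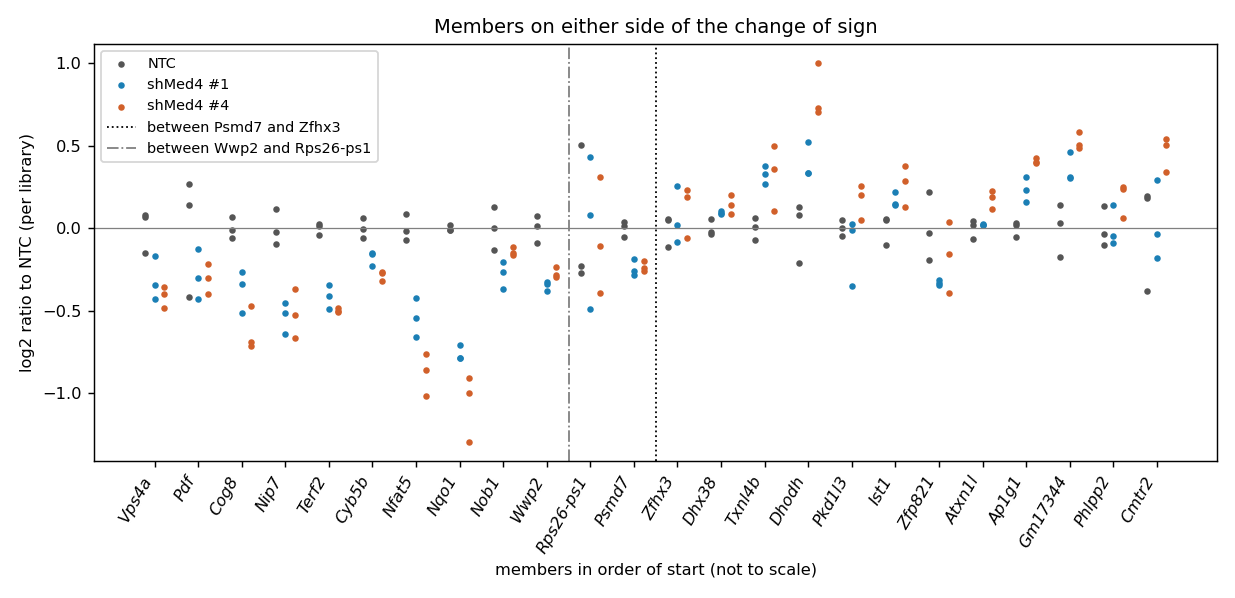
The 24 members around the change of direction in order of start, not to scale, with the log2 ratio to the NTC mean in each of the 9 libraries (3 points a group). Knockdown libraries lie mostly below 0 up to Psmd7 and mostly above 0 from Dhx38 on, with Rps26-ps1 and Zfhx3 spread around 0.

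The hairpins differed in the size of their changes, in this stretch and over all genes. Over all genes tested the robust SD against NTC was 0.31 with shMed4 #1 and 0.42 with shMed4 #4. The step from proximal to distal median was 0.63, 0.66 and 0.66 in the shMed4 #1 libraries (0.651 ± 0.019, SD, n = 3) and 0.82, 0.89 and 0.85 in the shMed4 #4 libraries (0.854 ± 0.038, SD, n = 3), with no overlap. In the NTC libraries it was -0.01, -0.02 and 0.01. Between the hairpins, edgeR called 58 proximal members lower and 22 higher with shMed4 #4 than with shMed4 #1, and 7 distal members lower and 54 higher. Over all genes tested 13.9% were called lower and 14.2% higher, where the distal share of higher calls was 34.0% and the proximal share of lower calls 19.1%. These shares are a description, since the members were chosen on the same libraries and genes are not replicates. Without overlap of libraries, 88 proximal members were lower with #4 and 67 distal members higher, where 20.1% and 20.0% of all genes were. The medians of shMed4 #4 minus shMed4 #1 were -0.07 and 0.12, against 0.00 over all genes and 0.09 over the 366 tested genes of chromosome 8 before 75 Mb. Of those 366 genes, 22.1% were called higher with #4 than #1 and 7.38% lower. A rise with #4 was thus not particular to the distal segment. Fitted to this contrast alone, the best split was between Nqo1 and Nob1 (107.412 Mb), with a step of 0.20 that saved 7.60% of the deviation. Med4 itself had fewer reads with shMed4 #1, the hairpin with the smaller step.

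Among members of at least 5 CPM, leaving out clone names, the largest differences with shMed4 #4 below shMed4 #1 were in Dpep3, Cdh11, Il15 and Nlrc5. The clone-named A330074K22Rik, at -1.09, lay between Il15 and Nlrc5. Dpep3, a membrane dipeptidase, read 3.97, 3.38 and 4.04 CPM with shMed4 #1 and 0.974, 0.991 and 0.979 CPM with shMed4 #4, from 10.5, 11.2 and 11.8 CPM in NTC. The groups did not overlap, and the hairpins differed by -1.94 (SE 0.29, edgeR adjusted p = 1.84e-06). Il15, a cytokine that maintains natural killer and memory T cells, read 10.8, 11.3 and 11.9 CPM in NTC, 8.55, 5.55 and 8.20 CPM with shMed4 #1 and 2.31, 2.60 and 4.04 CPM with shMed4 #4. Both hairpins were below NTC, and #4 differed from #1 by -1.31 (SE 0.21, edgeR adjusted p = 9.18e-06).

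In the other direction the largest were Syce2, Zfpm1, Hmox1 and Cotl1. Zfpm1, a distal gene for the GATA cofactor FOG1, read 9.80, 9.79 and 11.3 CPM in NTC, 22.2, 20.9 and 24.9 CPM with shMed4 #1 and 38.7, 33.3 and 35.2 CPM with shMed4 #4. It was above NTC in all 6 libraries and higher with #4 by 0.66 (SE 0.09, edgeR adjusted p = 8.11e-07). Hmox1, the proximal gene for heme oxygenase, read 129, 116 and 142 CPM in NTC, 70.8, 69.5 and 68.3 CPM with shMed4 #1, and 113, 100.5 and 98.7 CPM with shMed4 #4. It was low with both but less so with #4, by 0.58 (SE 0.07, edgeR adjusted p = 1.59e-08).

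A gene was counted against its neighbours when it differed from the median of the 10 members on each side by at least 1 on the log2 scale, had the other sign, and had libraries that did not overlap with NTC. By this measure 12 proximal members went against their neighbours with shMed4 #1 and 13 with shMed4 #4, 11 of them with both (3.63%). The measure was not applied to other stretches of the genome, so whether this share is high or low was not tested. In the distal segment the counts were 0, 5 and 0. The 5, named after their values were seen, were Tmem231, Spata33, Tubb3, Agt and the long noncoding RNA Fendrr. Fendrr read 60.9, 63.5 and 56.3 CPM in NTC, 37.6, 35.2 and 32.8 CPM with shMed4 #1 and 32.7, 36.4 and 30.0 CPM with shMed4 #4. It was low with both hairpins, at -0.78 and -0.87, and stood -0.99 and -1.20 from its neighbours. Most genes stayed near their neighbours, within 0.5 for 245 of 303 proximal members with shMed4 #1 and 213 with shMed4 #4, and for 139 and 131 of 159 distal members. Of the 11, 8 are protein-coding, and 4 averaged at least 5 CPM: Syce2, Mt3, Podnl1 and Adcy7.

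Syce2, a protein of the central element of the meiotic synaptonemal complex, read 2.98, 3.99 and 2.45 CPM in NTC, 8.18, 7.48 and 9.23 CPM with shMed4 #1 and 15.1, 13.01 and 13.1 CPM with shMed4 #4. The 3 groups did not overlap, with log2 fold changes of 1.41 and 2.13 where neighbours had a median near -0.4, and #4 was above #1 by 0.72 (SE 0.14, edgeR adjusted p = 0.000176). Podnl1, a leucine-rich repeat protein of the podocan family, read 43.2, 42.6 and 45.5 CPM in NTC, 81.1, 78.2 and 76.6 CPM with shMed4 #1, and 106, 109 and 109.9 CPM with shMed4 #4. Its 3 groups did not overlap either, at 0.84 and 1.30. Adcy7, an adenylyl cyclase, read 86.5, 87.5 and 94.4 CPM in NTC, 124, 119 and 122 CPM with shMed4 #1 and 101, 113 and 111 CPM with shMed4 #4. It was above NTC in all 6 libraries, at 0.45 and 0.27.

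The other 7 were sparse, at means of 1.85 to 4.95 CPM. The farthest from its neighbours was Mmp2, a secreted gelatinase that cleaves type IV collagen, at 0.496, 0.386 and 0.367 CPM in NTC, 2.11, 3.26 and 2.54 CPM with shMed4 #1, and 5.48, 6.07 and 4.04 CPM with shMed4 #4. The 3 groups did not overlap, at 2.62 (SE 0.41) and 3.59 (SE 0.36), but the NTC libraries held only 4, 3 and 3 of its reads. Mmp2, Cdh5 and the pseudogene Gm9655 had 10 reads in no NTC library, so they passed the read minimum only where they were high and had to differ, which leaves 8 of the 11. Il27ra, a receptor chain for interleukin 27, had 1.15 and 1.21, and Ccl17, a chemokine of dendritic cells, 1.27 and 0.81. Cdh5, the endothelial cadherin, had 1.55 and 1.41 at 0.83 CPM in NTC. Of the other endothelial markers Esam had 25 reads over all libraries, with means of 0.17 CPM in NTC and 0.44 and 0.41 CPM with the hairpins, Pecam1 had 35 reads, Kdr 1 and Tie1 0. These 4 and Gm9655 were singled out after their values were seen.

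Metallothioneins, small cysteine-rich proteins that bind zinc and copper, lie in a row in the proximal segment and did not move together. Mt1 read 193, 201 and 213 CPM in NTC, 131.02, 125 and 104 CPM with shMed4 #1 and 118, 109 and 111 CPM with shMed4 #4, so it was low in all 6, at -0.75 and -0.85. Mt2 had -0.48 and -1.01, and was lower with #4 than #1 by -0.54 (SE 0.07, edgeR adjusted p = 1.20e-07), though 73.5% of its exon sequence is shared with Gm45774 on the other strand. Mt3, the form known from brain, read 8.31, 7.21 and 8.08 CPM in NTC, 18.5, 19.0 and 19.6 CPM with shMed4 #1, and 23.0, 17.2 and 18.0 CPM with shMed4 #4. It was above NTC in all 6, at 1.27 and 1.30, and the hairpins differed by 0.03 (SE 0.11, edgeR adjusted p = 0.879). Mt4 had 1 read in all.

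The promoters of the 3 are shown because the genes lie within 27.7 kb and went in opposite directions. Capitals mark matches on either strand to the core of the metal response element, searched as TGCACNC and TGCGCNC. The windows are Mt1 at chr8:94178839-94179138, Mt2 at chr8:94172368-94172667 and Mt3 at chr8:94152357-94152656, all on the plus strand.
Mt1: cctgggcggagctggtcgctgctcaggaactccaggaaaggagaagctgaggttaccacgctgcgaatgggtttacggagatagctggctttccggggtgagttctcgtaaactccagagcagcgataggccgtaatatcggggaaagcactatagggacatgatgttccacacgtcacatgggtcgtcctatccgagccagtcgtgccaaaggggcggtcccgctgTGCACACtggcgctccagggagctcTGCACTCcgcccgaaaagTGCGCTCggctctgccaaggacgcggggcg
Mt2: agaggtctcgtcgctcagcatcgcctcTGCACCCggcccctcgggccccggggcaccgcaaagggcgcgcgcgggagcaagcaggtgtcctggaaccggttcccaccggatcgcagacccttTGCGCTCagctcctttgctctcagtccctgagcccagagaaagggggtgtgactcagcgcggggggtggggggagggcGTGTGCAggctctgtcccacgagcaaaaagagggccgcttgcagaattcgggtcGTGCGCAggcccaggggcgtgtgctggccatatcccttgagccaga
Mt3: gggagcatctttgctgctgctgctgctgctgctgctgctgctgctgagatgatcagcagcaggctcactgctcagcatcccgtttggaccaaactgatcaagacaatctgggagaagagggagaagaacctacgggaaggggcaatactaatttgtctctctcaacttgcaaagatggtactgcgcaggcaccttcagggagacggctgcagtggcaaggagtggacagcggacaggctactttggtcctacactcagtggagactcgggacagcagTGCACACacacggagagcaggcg
Mt1 held 3 matches, Mt2 held 4 and Mt3 held 1. At least 1 was held by 25.9% of all windows of this length, 36.7% of proximal member windows and 38.9% of distal member windows. A match describes the letters of the window only.

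**Figure D4:**
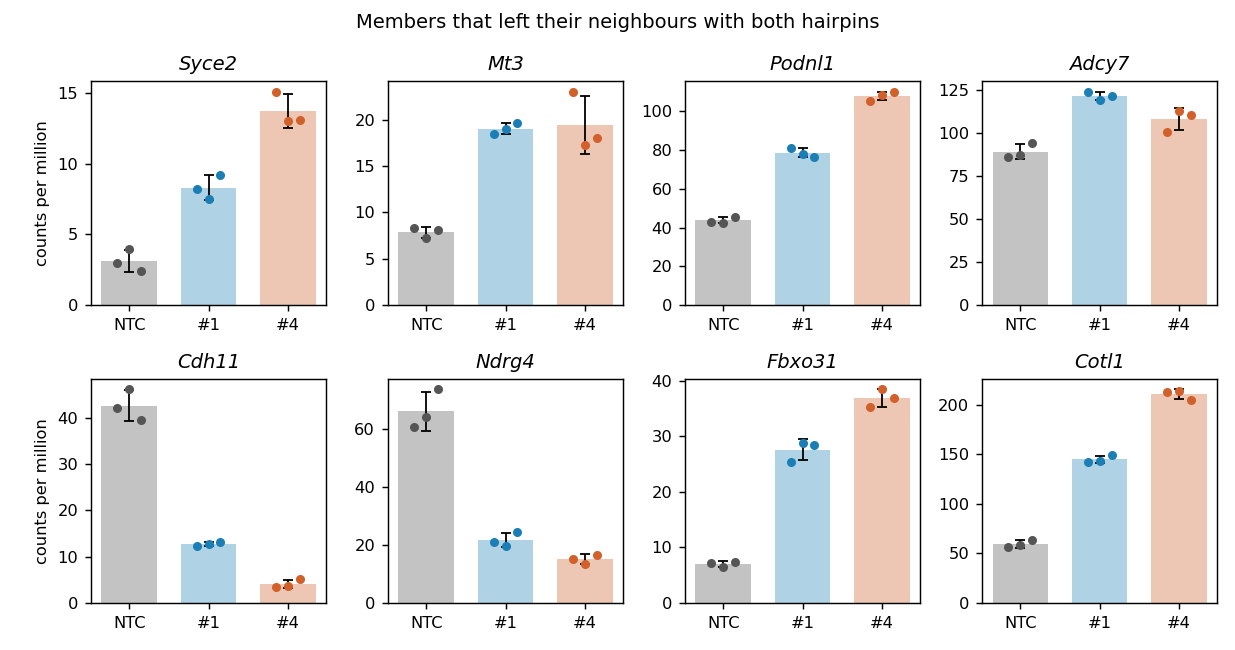
CPM in each library (points), with the mean of 3 libraries (bars) and SD (lines), for 4 proximal genes against their neighbours (top) and 4 genes that went further than their neighbours (bottom). The top row genes are higher with both hairpins within a low segment, Cdh11 and Ndrg4 lower and Fbxo31 and Cotl1 higher than their segments.

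Genes that went further than their neighbours, by at least 1 in the segment's own direction, numbered 14 with shMed4 #1 and 28 with shMed4 #4 in the proximal segment, 12 with both, and 3, 6 and 3 in the distal segment. These counts too were not made over other stretches of the genome. Of the 12, 5 had 10 reads in no knockdown library and had to differ, which leaves 7. Cdh11, a mesenchymal cadherin, read 42.2, 46.1 and 39.4 CPM in NTC, 12.4, 12.7 and 13.2 CPM with shMed4 #1 and 3.53, 3.59 and 5.14 CPM with shMed4 #4. The 3 groups did not overlap, with log2 fold changes of -1.74 and -3.38 and a difference between hairpins of -1.64 (SE 0.16, edgeR adjusted p = 2.81e-10). Ndrg4, a cytoplasmic protein best known in brain and heart, read 60.5, 64.0 and 73.6 CPM in NTC, 20.9, 19.6 and 24.4 CPM with shMed4 #1 and 15.1, 13.3 and 16.6 CPM with shMed4 #4. It too was ordered NTC, #1, #4, at -1.61 and -2.14.

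In the distal segment the genes beyond their neighbours with both hairpins were Fbxo31, Cotl1 and the sparse Fam89a. Fbxo31, a substrate receptor of SCF ubiquitin ligases, read 7.19, 6.44 and 7.34 CPM in NTC, 25.4, 28.9 and 28.4 CPM with shMed4 #1 and 35.2, 38.4 and 36.8 CPM with shMed4 #4. It had the highest log2 fold change of the distal segment with each hairpin, at 1.97 and 2.39, with no overlap between groups. Cotl1, an F-actin binding protein, read 56.3, 58.4 and 63.9 CPM in NTC, 142, 143 and 149 CPM with shMed4 #1 and 212, 214 and 205 CPM with shMed4 #4. It was at 1.28 and 1.82, and higher with #4 than #1 by 0.54 (SE 0.05, edgeR adjusted p = 2.70e-10).

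By role, 210 genes of the stretch were put in 11 lists, and 188 were measured. Calls below are edgeR's against NTC, to be read against the shares of all genes given above. The lists were made with earlier results known, and since the segments were chosen on these differences, a list's direction in a segment is no separate result.

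Of 17 proximal genes of RNA processing and translation, 16 were called lower with shMed4 #1 and 14 with shMed4 #4 (medians -0.47 and -0.43), and Dhx38, past the change of direction, was above 0. Cnot1, the scaffold of the deadenylase complex, had -0.56 and -0.62, and Nudt21, a cleavage factor that sets polyadenylation sites, -0.58 and -0.66. Of 11 distal genes 6 and 9 were called higher (medians 0.19 and 0.46). Aars, the alanyl-tRNA synthetase, had 0.35 and 0.51, and Rpl13, of the large ribosomal subunit, 0.11 and 0.33. With shMed4 #4 compared with #1, 8 of the 11 distal genes were called higher and 0 lower, where 14.2% of all genes and 34.0% of distal members were called higher.

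Of 9 proximal genes of DNA replication, repair and telomeres, 7 and 8 were called lower (medians -0.51 and -0.60), among them Mcm5, of the replicative helicase, at -0.27 and -0.40 and Rnaseh2a, of ribonuclease H2, at -0.39 and -0.52. Orc6, of the origin recognition complex, overlapped with NTC at -0.06 and -0.18. Of 6 distal genes 3 and 4 were called higher (medians 0.23 and 0.29), with the licensing factor Cdt1 at 0.35 and 0.29 and the ubiquitin ligase Rfwd3 at 0.28 and 0.45.

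In protein folding and turnover, 13 and 12 of 14 proximal genes were called lower (medians -0.53 and -0.61). Dnaja2, a co-chaperone of HSP70, had -0.56 and -0.62 and N4bp1, an endoribonuclease that restrains NF-kB, -0.61 and -0.81. Calr was the exception and the most abundant member. It read 4551, 4555 and 4396 CPM in NTC, 5002, 4866 and 4559 CPM with shMed4 #1 and 5132, 5131 and 5037 CPM with shMed4 #4. All 6 knockdown libraries were above NTC, by a log2 fold change of 0.10 and 0.18, and it stood 0.47 and 0.50 above its neighbours. With shMed4 #1 the margin was narrow, at 4559 CPM against 4555 CPM in NTC, and edgeR called Calr higher with shMed4 #4 only. Of 4 distal genes 1 and 2 were called higher.

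Of 9 proximal genes of membrane trafficking, 7 and 7 were called lower and 2 and 2 higher. Vps35, the core of retromer, had -0.44 and -0.43 and Dync1li2, a dynein light intermediate chain, -0.71 and -0.91. The 2 called higher were Ist1 and Ap1g1, which both lie between Zfhx3 and 110 Mb. Ap1g1, of the AP-1 adaptor, had 0.23 and 0.41, with 18.7% of its exons shared with Gm17344. Of 11 distal genes all were above 0, and 5 and 10 were called higher, such as Glg1, a Golgi glycoprotein, at 0.23 and 0.31 and Mbtps1, the site-1 protease that activates SREBP and ATF6, at 0.30 and 0.42.

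Among genes of mitochondria and metabolism, 14 and 14 of 17 proximal members were called lower (medians -0.41 and -0.37), and 12 and 13 of 15 distal members higher (medians 0.22 and 0.36). Got2, the mitochondrial aspartate aminotransferase, had -0.41 and -0.50, Prdx2, a peroxiredoxin that shares 11.5% of its exons with Rnaseh2a, -0.39 and -0.34, and Gpt2, the alanine aminotransferase, -0.07 and 0.03. On the distal side Cox4i1, of cytochrome c oxidase, had 0.22 and 0.29. Slc7a5, the light chain of a transporter of large neutral amino acids, read 236, 240 and 237 CPM in NTC, 304, 337 and 331 CPM with shMed4 #1, and 420, 419 and 393 CPM with shMed4 #4. The groups were ordered NTC, #1, #4 with no overlap, at 0.45 and 0.79.

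Of 19 proximal genes of transcription and chromatin, 14 and 14 were called lower (medians -0.42 and -0.43), with 0 and 1 called higher. Nfat5, the factor of the osmotic stress response, had -0.54 and -0.88, Smarca5, an ISWI remodeller, -0.36 and -0.32, and Nacc1, a BTB domain corepressor, -0.38 and -0.17. Cbfb, the partner of RUNX factors, had -0.42 and -0.18 and was higher with #4 than #1 by 0.24 (SE 0.05, edgeR adjusted p = 0.000364). Of 9 distal genes 4 and 4 were called higher (medians 0.12 and 0.23), and Ankrd11, a nuclear protein that binds histone deacetylases, had 0.04 and 0.11.

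Adhesion and polarity genes had 4 and 4 of 5 proximal members called lower, such as the formin Fhod1 at -0.69 and -0.88, and 4 and 6 of 6 distal members called higher. Itgb1, the beta chain of collagen and fibronectin receptors, read 1037, 961 and 950 CPM in NTC, 1672, 1583 and 1619 CPM with shMed4 #1 and 1790, 1813 and 1814 CPM with shMed4 #4. Every knockdown library was above NTC, at 0.72 and 0.88, or 0.51 and 0.39 above its neighbours. Bcar1, the p130Cas scaffold, had 0.12 and 0.51, and Piezo1, a mechanosensitive channel with 24.6% of its exons shared with Ctu2, 0.23 and 0.23. Of the 8 listed cadherins of the stretch, Cdh11 and Cdh5 were measured, 1 low and 1 high, and Cdh1, Cdh3, Cdh8 and Cdh16 of the proximal and Cdh13 and Cdh15 of the distal segment had at most 13 reads in all.

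Signalling genes were more mixed, with 8 and 9 of 13 proximal members called lower and 2 and 3 higher (medians -0.39 and -0.30). Csnk2a2, a catalytic subunit of casein kinase 2, had -0.73 and -0.81, Prkaca, of protein kinase A, -0.27 and -0.24, and the G protein subunit Gnao1 -0.12 and -0.14. On the distal side 4 and 4 of 8 were called higher, led by the small GTPase Rhou at 1.07 and 1.53. Of 8 proximal genes of cytokines and immunity, 5 and 6 were called lower and 3 and 1 higher. Nlrc5, which drives transcription of MHC class I genes, read 45.4, 46.1 and 43.7 CPM in NTC, 16.7, 14.97 and 16.97 CPM with shMed4 #1 and 8.64, 7.81 and 8.44 CPM with shMed4 #4. Its groups did not overlap, and #4 was lower than #1 by -0.97 (SE 0.12, edgeR adjusted p = 9.16e-08).

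Cx3cl1, the membrane-bound chemokine fractalkine, read 87.1, 97.8 and 107 CPM in NTC, 127, 132 and 123 CPM with shMed4 #1 and 89.5, 85.6 and 71.2 CPM with shMed4 #4. It was above NTC with #1, overlapped NTC with #4, and differed between the hairpins by -0.63 (SE 0.07, edgeR adjusted p = 4.46e-09). Cmtm3, a chemokine-like membrane protein, had -0.89 and -0.82. On the distal side Mlkl, the effector of necroptosis, had 0.55 and 0.61, and Il34, a ligand of the CSF1 receptor, overlapped with NTC at 0.13 and 0.14.

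**Figure D5:**
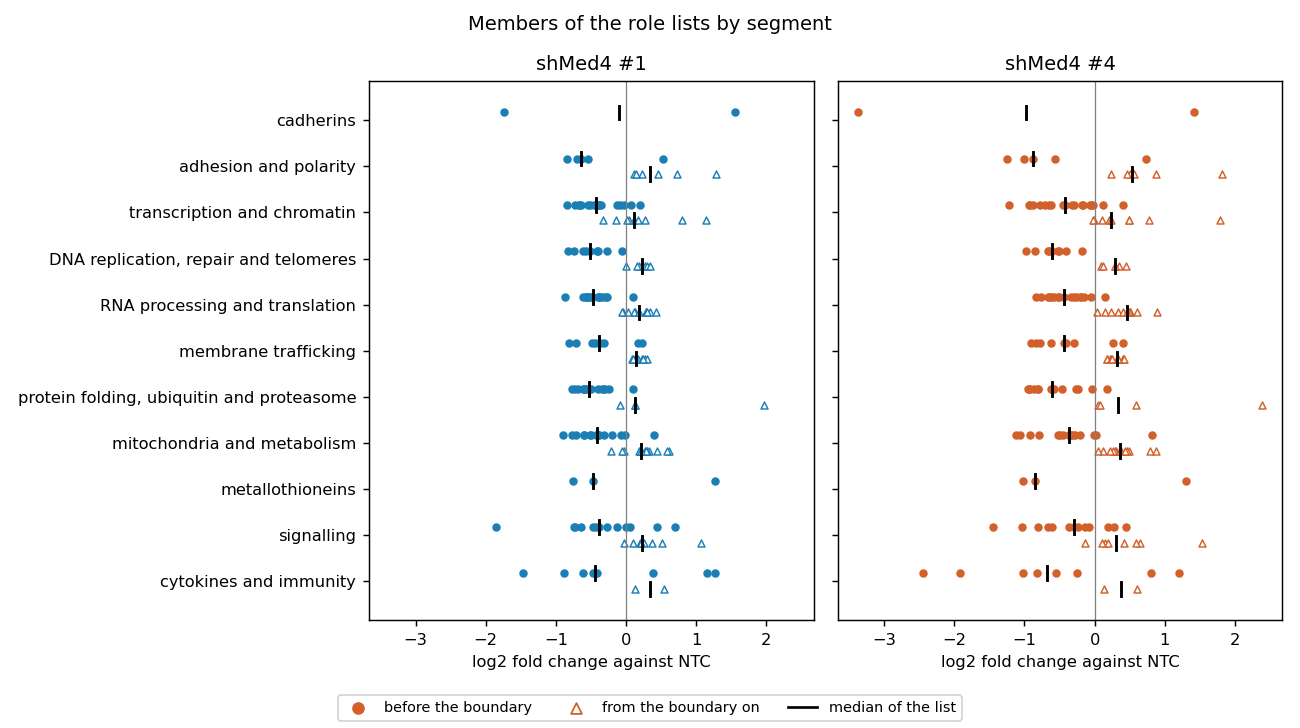
Log2 fold change against NTC of the measured genes of 11 role lists, for shMed4 #1 (left) and shMed4 #4 (right), with proximal genes as filled circles, distal genes as open triangles and list medians as black bars. In each list with members on both sides, the proximal median lies below 0 and the distal median above 0.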

How the data were processed

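RNA of 9 D2A1-d libraries (3 groups of 3) was read on a BGISEQ-500, per the labels' protocols. Per the submitters' processing notes, the authors used STAR, HTSeq and the build GRCm38 (mm10). Neither versions nor annotation release nor use of strand is stated there. The deposited values are whole-number counts of reads per gene, not normalised, and 5 summary lines that name no gene were left out (49.5 to 51.6% of records were assigned to no gene). Positions, biotypes and exon overlap came from GENCODE M21, which matched 55154 of 55335 identifiers, and promoter windows from RefSeq (GRCm38.p6).

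Counts were fitted in R 4.3.3 with edgeR 4.0.16 (filterByExpr with a minimum count of 10, TMM factors from 0.969 to 1.03, quasi-likelihood, 3 groups), which left 14335 genes. P-values were adjusted by Benjamini-Hochberg over all of them, and a standard error is the size of a log2 fold change divided by the square root of F. CPM used TMM library sizes, and log2 CPM per library had a prior count of 2. A split needed at least 10 members on each side. Neighbours were up to 10 members on each side within a segment. Replicates of a group differed beyond sampling noise (chi-square divided by its degrees of freedom, 1.53 to 2.95). On data simulated for shMed4 #4 minus shMed4 #1 over 14335 genes, the changed genes were drawn from those averaging at least 50 reads a library. The test recovered 100% of 100 genes changed 2-fold and 94% of 100 changed 1.5-fold. Counts were drawn with the dispersions fitted by the model itself. Recovery among sparser genes, of changes under 1.5-fold, or with many genes changed at once was not simulated. Precision from depth covers counting error only.

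Named genes are Med4, the 3 members on each side of a split and 2 on each side of 75 and 110 Mb, up to 8 against and 6 beyond their neighbours with both hairpins, up to 5 of each role list by CPM, and the 4 largest differences between hairpins each way at a mean of at least 5 CPM, with no clone or predicted names. Cdh11, Dpep3, Nlrc5, Slc7a5 and Itgb1 and all listed cadherins and metallothioneins were added. A few genes that this rule names are not reported here. Members, lists and the boundary were chosen with earlier results of these data known. An exact permutation test of the step between hairpins had been planned. It is not given, because the members were chosen on these samples, and with 3 libraries against 3 an exact permutation p cannot go below 0.1. Alternatives changed the normalisation, tool, filter, libraries, members, boundary and neighbours (DESeq2 1.42.0, limma 3.58.1).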

Additional observations from a re-analysis of the deposited data

Results flagged for a closer look

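In 3 members the hairpins lay on opposite sides of NTC with no overlap between any of the groups, and differed from each other in edgeR's test. The share of all genes that meet this is not given here, so 3 is read as neither many nor few. Adgrl1, a proximal gene for the adhesion receptor latrophilin 1, read 115, 112 and 106 CPM in NTC, 99.9, 91.7 and 105 CPM with shMed4 #1 and 129.998, 136 and 130.045 CPM with shMed4 #4. The hairpins differed by 0.42 (SE 0.06, edgeR adjusted p = 5.60e-07), and 15.6% of its exons are shared with Gm10644 on the other strand. Sf3b3, a distal gene for a subunit of the splicing factor SF3b, read 317.4, 326 and 322 CPM in NTC, 313, 317.2 and 307 CPM with shMed4 #1 and 367, 363 and 344 CPM with shMed4 #4. With shMed4 #1 the margin was narrow, at 317.2 CPM against 317.4 CPM in NTC, and edgeR did not call Sf3b3 lower with shMed4 #1. It differed between the hairpins by 0.20 (SE 0.05, edgeR adjusted p = 0.00197). The distal noncoding A330074K22Rik read 8.93, 11.3 and 11.9 CPM in NTC, 18.5, 15.5 and 12.5 CPM with shMed4 #1 and 6.21, 8.30 and 7.22 CPM with shMed4 #4, and differed by -1.09 (SE 0.15, edgeR adjusted p = 8.21e-07).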

How the results depend on the processing

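The sign of each segment median, against NTC and between hairpins, held under every alternative run. Upper-quartile factors, which move the median of all genes to -0.04 and -0.06, gave proximal medians of -0.46 (#1) and -0.56 (#4), a distal median of 0.31 (#4) and -0.28 for Psmd7 (#4). With members of at least 50 reads in all 9 libraries, proximal medians were -0.40 and -0.45 and the #4 step 0.82. Proximal spreads were then 0.25 and 0.39 and the distal #4 spread 0.24, the #1 split moved to 107.943 Mb, and counts against neighbours were 4, 3 and 3 (#1, #4, both) proximal and 1, 2 and 1 distal. Beyond neighbours were 1, 3 and 1 proximal members, since sparse genes are left out. Protein-coding members alone gave proximal spreads of 0.30 and 0.45, a distal #4 spread of 0.25, a #1 split at 107.943 Mb, and 8, 17 and 6 proximal members beyond their neighbours. The split for #4 moved to 107.439 Mb with least squares and with members from 90 Mb on. With 25 neighbours, 1 distal member went against its neighbours with #1 and with both. The last alternatives were added after the data were seen. The boundary at Zfhx3 gave a proximal median of -0.46 with #1, and leaving out members that share exons with the other strand moved no count by over 1.5 times (47 proximal lower and 46 distal higher calls between hairpins). DESeq2 and an adjusted p under 0.01 each called 4 distal members lower with #4 than #1.

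Leaving out 1 library at a time, the #1 proximal median ran from -0.46 to -0.43 and its step from 0.62 to 0.66, and the #4 minus #1 distal median from 0.12 to 0.15. Either split ran from 107.439 to 107.943 Mb. The #1 split moved without NTC replicate 2, NTC replicate 3 or shMed4 #1 replicate 1, and the #4 split without NTC replicate 1 or shMed4 #4 replicate 2. Distal members against their neighbours ran from 0 to 2 with #1 and 0 to 1 with both, rising without NTC replicate 2, NTC replicate 3 or shMed4 #1 replicate 1. Distal members beyond ran from 3 to 5 with #1, the 5 without shMed4 #1 replicate 3. Distal members lower with #4 than #1 ran from 4 to 7, the 4 without shMed4 #1 replicate 2 or shMed4 #4 replicate 3. The causes were not tested. Replicate numbers did not pair the libraries (same-number correlations of -0.06 to 0.04), and with the replicate block 55 proximal members were called lower and 51 distal members higher with #4 than #1. Under 10 CPM, depth limits single-gene values.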
